A study of Homo sapiens with 6 samples.

Results

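The genes described here are 33 genes of glycolysis and the pentose phosphate pathway, taken by symbol from a table of read counts for 26334 genes. All 33 were found in the table and all passed the filter on low counts. They were listed by pathway and were grouped by role into glucose uptake and priming (5 genes), the phosphofructokinase step (6), lower glycolysis (9), lactate handling (4), the pentose phosphate pathway (6) and the pyruvate dehydrogenase kinases (3).

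The measurements were poly-A RNA-seq of MCF10DCIS.com, a human breast cancer cell line that forms lesions like comedo ductal carcinoma in situ in mice. Control cells carried an shRNA against luciferase (shLuc, n = 3) and silenced cells carried shRNA against WDR5 (shWDR5, n = 3), a core subunit of histone methyltransferase complexes. The study describes a pool of WDR5 shRNAs for its animal work with this line, and the labels do not say which shRNA the sequenced cells carried. Both groups shared the lentiviral backbone with its red fluorescent reporter, selection in puromycin at 3 µg/ml and medium with 5% horse serum, and both came from 1 cell line with a silenced rather than a deleted gene. The study describes its data in general as biological triplicates, but nothing in the labels says that these libraries came from separate cultures, so p-values measure the spread between these libraries, which may be technical.

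Total counts per library ranged from 38218108 to 57640167 reads. Expression is given as CPM, counts-per-million after TMM scaling, and, wherever levels of different genes are set side by side, as RPKM, the same value per kilobase of exon. WDR5 itself had 52.6, 48.5 and 51.3 CPM in shLuc and 23.4, 24.4 and 20.8 CPM in shWDR5. It fell to 0.45 times the control level (log2 fold change -1.15 ± 0.07 SE, edgeR adjusted p = 1.9e-07), in 3 of 3 libraries, so the silenced cells kept part of their WDR5 mRNA. All 8 markers listed for this line as basal or general epithelial were detected. Their summed level was 4112 to 4319 CPM in shLuc and 6463 to 7299 CPM in shWDR5. Of these 8 genes, 5 rose and 3 fell (CDH1, EPCAM and EGFR), and their part in the results that follow was not tested. KRT17, the highest of them, went from a mean of 2159 CPM in shLuc to 4131 CPM in shWDR5, and CDH1 from 496 to 242 CPM. The genes named here were chosen after their values were seen. The 6 luminal markers summed to 3354 to 3616 CPM in shLuc and 3254 to 3568 CPM in shWDR5. Of the 5 that were tested, none rose and 2 fell. Most of the sum came from KRT8 and KRT18, with means of 2024 and 1367 CPM in shLuc. ESR1 had a mean of 3.68 CPM in shLuc, and PGR did not pass the filter on low counts. The 6 fibroblast markers summed to at most 23.7 CPM and the 6 immune and endothelial markers to at most 19.6 CPM in any library, with LUM and CD3E at 0 in all 6.

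Glycolysis splits glucose into pyruvate. Glucose enters through GLUT transporters, is trapped by hexokinase, passes the committed step at phosphofructokinase and yields ATP and NADH further down the pathway, and pyruvate then either leaves as lactate or enters mitochondria through pyruvate dehydrogenase. The pentose phosphate pathway branches off at glucose-6-phosphate, with an oxidative arm that yields NADPH and a reversible, non-oxidative arm that exchanges sugar phosphates with glycolysis and provides ribose for nucleotides. Many tumour cells run glycolysis at a high rate even with oxygen, and several glycolytic genes are known targets of HIF1A and MYC.

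After WDR5 silencing, most genes of lower glycolysis and lactate handling rose together with the glucose transporter SLC2A1, the non-oxidative pentose phosphate genes RPIA, TKT and TALDO1 fell, and hexokinase, ENO1, LDHB and PGD did not pass the test. A gene was called where edgeR's quasi-likelihood test gave a Benjamini-Hochberg adjusted p below 0.05 over all 16117 genes tested. Of the 33 members, 17 (51.5%) were called higher and 7 (21.2%) lower, and 9 were not called. The background was broad, since 26.6% of all tested genes were called higher and 29.9% lower, 56.5% in either direction. The share of members called higher therefore lay above the background share and the share called lower lay below it. The members were chosen with earlier results of these data known, so this contrast is a description and not a test. The background was also not matched to the members in expression level, which affects how small a change can be called. The median log2 fold change of the members was 0.23, beside -0.01 over all tested genes. Adding the size criteria stated by the study, a log2 fold change of at least 0.6 in either direction and more than 0.5 RPKM, left 3 members higher (PFKFB3, PFKFB4 and PGK1) and 3 lower (RPIA, PFKFB2 and ENO2), beside 7.09% and 10% of all tested genes. By that stricter count the members lay near the background. PKM, with a log2 fold change of 0.58, joined the first group without shLuc replicate 1, without shWDR5 replicate 2 or without shWDR5 replicate 3.

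**Figure D1:**
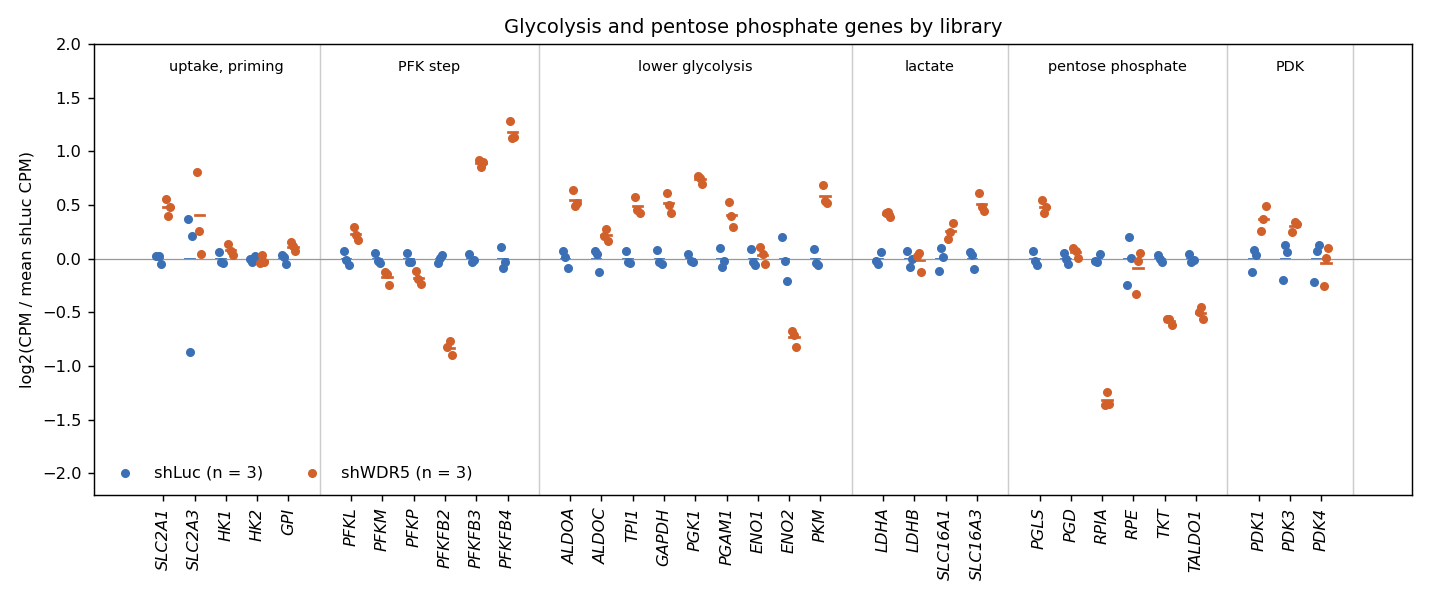
Each point is 1 library, plotted as log2 of its CPM over the mean shLuc CPM of that gene, with shLuc in blue and shWDR5 in orange, and short lines mark group means. PFKFB4, PFKFB3 and PGK1 stand highest and RPIA lowest in shWDR5, and the 2 groups do not overlap for 18 members in the upward and 7 in the downward direction.

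The values of the 2 groups did not overlap for 18 members higher and 7 lower in shWDR5, where 29.9% and 32.4% of all tested genes showed such a separation in those directions. GPI was the 1 member that separated upward and was not called.

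**Figure D2:**
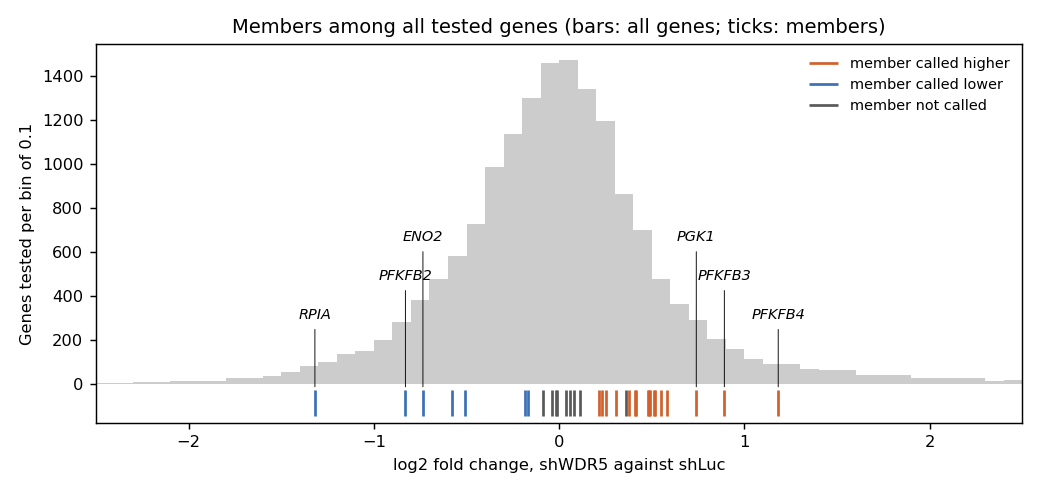
Grey bars count all tested genes by log2 fold change of shWDR5 against shLuc in bins of 0.1, and ticks below mark the 33 members by their call; 104 genes beyond 2.5 in either direction are outside the axis. Most members called higher lie between 0.2 and 0.6, while RPIA, PFKFB2, ENO2, PGK1, PFKFB3 and PFKFB4 lie further out.

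To show what the promoters of these genes hold, RefSeq windows of 300 bases, from 250 before to 50 after the annotated start (GRCh38.p14, while the counts were made on hg19), were matched to 30 of the 33 members. The 5 printed here are those of 3 genes that rose, picked because their windows hold the letters ACGTG, and of the 2 pentose phosphate genes with the largest decreases. ACGTG is a form of the core RCGTG (R is A or G) of the element bound by hypoxia-inducible factors, and GCGTG is the other form. CACGTG, the E-box bound by MYC and MLX partners, contains ACGTG on both strands and so counts as 2 matches. Capitals mark ACGTG on either strand, and GCGTG is not marked. The windows are LDHA (chr11:18394313-18394612, plus strand), PGK1 (chrX:78103998-78104297, plus strand), GAPDH (chr12:6535014-6535313, plus strand), RPIA (chr2:88691423-88691722, plus strand) and TKT (chr3:53255973-53256272, minus strand), each written 5′ to 3′ on the gene's own strand.
LDHA: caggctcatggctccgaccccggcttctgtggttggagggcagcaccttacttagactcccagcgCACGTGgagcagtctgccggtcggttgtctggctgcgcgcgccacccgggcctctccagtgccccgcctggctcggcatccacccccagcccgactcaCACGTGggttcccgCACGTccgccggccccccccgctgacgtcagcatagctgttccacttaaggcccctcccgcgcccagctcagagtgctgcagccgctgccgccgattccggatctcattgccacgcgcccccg
PGK1: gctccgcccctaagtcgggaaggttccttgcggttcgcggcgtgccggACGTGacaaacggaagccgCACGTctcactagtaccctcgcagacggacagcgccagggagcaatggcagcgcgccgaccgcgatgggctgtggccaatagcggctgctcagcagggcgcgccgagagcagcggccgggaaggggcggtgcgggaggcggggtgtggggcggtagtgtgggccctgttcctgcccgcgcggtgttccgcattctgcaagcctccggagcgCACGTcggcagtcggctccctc
GAPDH: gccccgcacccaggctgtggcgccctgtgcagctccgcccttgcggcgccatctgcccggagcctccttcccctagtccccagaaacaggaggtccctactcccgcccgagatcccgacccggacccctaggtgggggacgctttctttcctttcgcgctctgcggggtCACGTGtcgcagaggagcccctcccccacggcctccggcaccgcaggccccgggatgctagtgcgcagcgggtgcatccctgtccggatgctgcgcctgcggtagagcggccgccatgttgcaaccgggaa
RPIA: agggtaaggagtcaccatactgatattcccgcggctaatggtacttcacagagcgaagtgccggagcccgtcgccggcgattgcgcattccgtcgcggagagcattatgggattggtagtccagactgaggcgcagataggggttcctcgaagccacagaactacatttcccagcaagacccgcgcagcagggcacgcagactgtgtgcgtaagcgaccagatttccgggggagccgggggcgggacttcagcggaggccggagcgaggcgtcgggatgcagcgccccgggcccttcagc
TKT: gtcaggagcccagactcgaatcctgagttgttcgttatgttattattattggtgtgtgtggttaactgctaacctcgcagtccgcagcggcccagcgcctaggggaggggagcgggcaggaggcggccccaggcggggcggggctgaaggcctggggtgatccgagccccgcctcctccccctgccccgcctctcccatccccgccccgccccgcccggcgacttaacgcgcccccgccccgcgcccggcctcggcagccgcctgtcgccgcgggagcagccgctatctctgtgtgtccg

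The LDHA window held 5 matches to ACGTG, PGK1 3 and GAPDH 2, and RPIA and TKT held none. LDHA, PGK1 and GAPDH were picked for holding it, so this contrast does not describe the members. The windows of PFKFB4 and PFKFB3, the members with the largest increases, held none, nor did those of PKM and TPI1. Among members called higher, 6 of 16 windows (37.5%) held ACGTG, among those called lower 1 of 6 (16.7%, in ENO2) and among those not called 3 of 8 (37.5%), beside 21.6% of all 27305 promoters and 25.6% of the 11381 matched to tested genes. CACGTG stood in 3 windows of members called higher (LDHA, GAPDH and ALDOC, 18.8%) and in none of the other members, beside 9.86% of tested genes called higher and 7.43% of all promoters. Over all 30 members the share with CACGTG was 10.0%, near the 9.55% of tested genes. Judged by the shift between builds at its neighbours TPI1 and ENO2, the GAPDH window lies inside the gene, downstream of its outermost start. Where the other windows lie within their genes is not given here, and some of them may also lie inside. The share of tested genes with ACGTG was 25.2% among those called higher and 25.2% among those called lower. GCGTG was found in 14 of 30 members (46.7%, beside 48.5% of tested genes and 36.3% of all promoters) and CCAAT in 13 (43.3%, beside 36.3% of tested genes and 35.7% of all promoters). These are matches of letters in a short window and no test was made of them.

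Of the 5 genes of glucose uptake and priming, 1 transporter rose and the other genes, hexokinases included, were not called. Of all tested genes, 26.6% were called higher and 29.9% lower. SLC2A1 (chr1:43391046-43424847, hg19, minus strand), the GLUT1 transporter of most epithelial cells, had 307, 307 and 292 CPM in shLuc and 443, 399 and 422 CPM in shWDR5. Every shWDR5 library stood above every shLuc library, a 1.40-fold higher level (log2 fold change 0.48 ± 0.06 SE, edgeR adjusted p = 2.0e-05). SLC2A3, the high-affinity GLUT3 transporter, was at 0.235 ± 0.0932 CPM in shLuc and 0.311 ± 0.0877 CPM in shWDR5 (SD, n = 3), which is 5 to 19 reads a library, and a difference was not detectable at this depth (log2 fold change 0.36 ± 0.37 SE, edgeR adjusted p = 0.43). Per length it supplied 0.0727% of the summed SLC2A1 and SLC2A3 level in shLuc.

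HK1, the widely expressed hexokinase, had 329, 308 and 305 CPM in shLuc and 344, 329.5 and 322 CPM in shWDR5. HK2, the inducible hexokinase of many tumours, had 365, 358 and 372 CPM in shLuc and 355, 374 and 358 CPM in shWDR5. Both sets of values overlapped between the groups and neither gene was called (log2 fold change 0.08 ± 0.05 SE, edgeR adjusted p = 0.23 for HK1, and log2 fold change -0.01 ± 0.05 SE, edgeR adjusted p = 0.86 for HK2). As RPKM, HK1 stood at 73.2 and HK2 at 51.5 in shLuc, so HK2 made 41.3% ± 1.11 of the pair there and 39.7% ± 1.19 in shWDR5 (SD, n = 3). GPI, which turns glucose-6-phosphate into fructose-6-phosphate, had 608, 599.9 and 572 CPM in shLuc and 659.9, 642 and 623 CPM in shWDR5. Its groups did not overlap, but the difference did not pass the test (log2 fold change 0.11 ± 0.05 SE, edgeR adjusted p = 0.086), and without shLuc replicate 1 it did (edgeR adjusted p = 0.049).

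At the phosphofructokinase step the bifunctional regulators moved far more than the enzyme's own subunits, and in opposite directions among themselves. PFKFB enzymes make and remove fructose-2,6-bisphosphate, the strongest known activator of phosphofructokinase. PFKFB4 (chr3:48555117-48594227, hg19, minus strand) had 37.5, 32.9 and 34.2 CPM in shLuc and 85.1, 75.8 and 76.6 CPM in shWDR5. The increase of 2.27-fold was the largest among the members (log2 fold change 1.18 ± 0.07 SE, edgeR adjusted p = 1.3e-07). PFKFB3 (chr10:6186843-6277507, hg19, plus strand), the isoenzyme with the highest kinase activity relative to its phosphatase, had 65.0, 61.7 and 62.7 CPM in shLuc and 119.7, 114 and 118 CPM in shWDR5. It rose 1.85-fold with a narrow spread within each group (log2 fold change 0.89 ± 0.05 SE, edgeR adjusted p = 1.4e-07). PFKFB2 (chr1:207226620-207254368, hg19, plus strand), best known from heart, had 55.8, 57.5 and 58.6 CPM in shLuc and 32.3, 33.6 and 30.8 CPM in shWDR5. Its level fell to 0.563 times that of control, with no overlap between the groups (log2 fold change -0.83 ± 0.06 SE, edgeR adjusted p = 5.1e-07).

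The makeup of the PFKFB family differed between the groups. Per length, PFKFB2 supplied 21.5% ± 1.09 of the summed PFKFB2, PFKFB3 and PFKFB4 level in shLuc and 7.01% ± 0.434 in shWDR5 (SD, n = 3). PFKFB4 went from 34.1% ± 1.26 to 45.1% ± 1.16, and PFKFB3 from 44.4% ± 0.221 to 47.9% ± 0.991. A 3-against-3 comparison of a single value cannot reach an exact permutation p below 0.1, so these shares are given as values. This family was singled out for shares after its values were seen.

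Among the phosphofructokinase subunits themselves the changes were smaller. PFKL, the liver-type subunit, had 129, 122 and 119 CPM in shLuc and 151, 144 and 139 CPM in shWDR5 and was called higher (log2 fold change 0.23 ± 0.06 SE, edgeR adjusted p = 0.0049). PFKP, the platelet-type subunit and the main one in these cells, had 309, 291 and 291 CPM in shLuc and 274, 261 and 252 CPM in shWDR5 (log2 fold change -0.18 ± 0.06 SE, edgeR adjusted p = 0.014). PFKM, the muscle-type subunit, had 101, 96.2 and 94.9 CPM in shLuc and 89.4, 88.5 and 82.3 CPM in shWDR5 (log2 fold change -0.17 ± 0.06 SE, edgeR adjusted p = 0.026). Both were called lower, and both calls were lost without shLuc replicate 1 (edgeR adjusted p = 0.065 for PFKP and 0.11 for PFKM), without shWDR5 replicate 2 (0.051 and 0.054) and without shWDR5 replicate 3 (0.066 and 0.12). PFKL made 22.3% ± 0.241 of the summed subunit level per length in shLuc and 27.7% ± 0.0689 in shWDR5, while PFKP went from 61.9% ± 0.262 to 57.5% ± 0.214 (SD, n = 3). The summed level of the 3 subunits overlapped between the groups, with RPKM values of 162 ± 5.92 in shLuc and 153 ± 6.47 in shWDR5 (SD, n = 3). About 6.02% of PFKM's exonic bases are shared with SENP1 on the opposite strand, and the strand setting of the counting is not given in the sources used here.

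**Figure D3:**
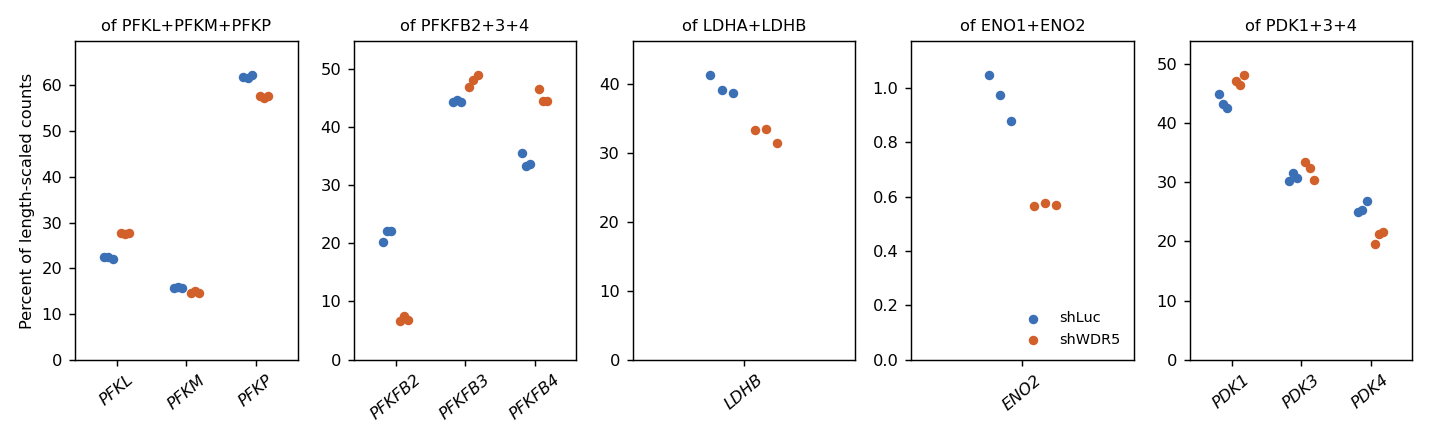
Each point is the share of 1 gene in the summed length-scaled counts of its family in 1 library, in percent, with shLuc in blue and shWDR5 in orange. The PFKFB2 share is above 20% in shLuc and under 8% in shWDR5, the LDHB and ENO2 shares are lower in every shWDR5 library, and the PDK3 share overlaps between groups.

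Of the 9 genes of lower glycolysis, 7 rose, 1 fell and 1 was not called, with a median log2 fold change of 0.49, where 26.6% of all tested genes were called higher and 29.9% lower and their median was -0.01. PGK1 (chrX:77359666-77382324, hg19, plus strand), which makes the first ATP of the pathway and whose promoter window was printed, had 553, 528 and 525 CPM in shLuc and 914, 903 and 867 CPM in shWDR5. This was the largest increase in the group, 1.67-fold (log2 fold change 0.74 ± 0.05 SE, edgeR adjusted p = 3.7e-07), and the lowest shWDR5 library stood far above the highest shLuc library. PKM, pyruvate kinase, which makes the second ATP, had 3670.3, 3358 and 3304 CPM in shLuc and 5530.3, 4989 and 4922 CPM in shWDR5. It rose 1.49-fold (log2 fold change 0.58 ± 0.06 SE, edgeR adjusted p = 1.4e-05), and because the counts are summed over exons, the M1 and M2 splice forms cannot be told apart.

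ALDOA, the main aldolase of most tissues, had 1157, 1113 and 1035 CPM in shLuc and 1718, 1544 and 1573 CPM in shWDR5. TPI1, which interconverts the triose phosphates, had 610.3, 566 and 564 CPM in shLuc and 867, 794 and 779 CPM in shWDR5. GAPDH, which makes the NADH of glycolysis and often serves as a reference gene, had 5790.1, 5335 and 5277 CPM in shLuc and 8349, 7753 and 7357 CPM in shWDR5. All 3 separated completely between the groups and rose by a like factor, 1.46-fold for ALDOA (log2 fold change 0.55 ± 0.06 SE, edgeR adjusted p = 1.5e-05), 1.40-fold for TPI1 (log2 fold change 0.49 ± 0.06 SE, edgeR adjusted p = 2.8e-05) and 1.43-fold for GAPDH (log2 fold change 0.52 ± 0.06 SE, edgeR adjusted p = 2.9e-05). PGAM1, phosphoglycerate mutase, had 430.4, 379.8 and 395 CPM in shLuc and 579, 529.9 and 492 CPM in shWDR5. Its rise was 1.33-fold (log2 fold change 0.41 ± 0.07 SE, edgeR adjusted p = 3.7e-04), again with no overlap. ALDOC, the aldolase known from brain, had 33.1, 32.5 and 29.02 CPM in shLuc and 36.4, 38.2 and 35.3 CPM in shWDR5, and supplied 5.29% ± 0.1 of the summed aldolase level per length in shLuc (SD, n = 3). It was called higher (log2 fold change 0.22 ± 0.07 SE, edgeR adjusted p = 0.02), a call that was lost without shLuc replicate 3 (edgeR adjusted p = 0.086) and without shWDR5 replicate 2 (0.091).

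Enolase, which sits between the mutase and pyruvate kinase, differed from its neighbours. ENO1 (chr1:8921059-8939151, hg19, minus strand), the main enolase, had 3395, 3127 and 3061 CPM in shLuc and 3445, 3285 and 3087 CPM in shWDR5. Its groups overlapped and the difference did not pass the test (log2 fold change 0.03 ± 0.06 SE, edgeR adjusted p = 0.66). ENO2, the neuronal enolase, had 26.7, 22.9 and 20.2 CPM in shLuc and 14.6, 14.2 and 13.2 CPM in shWDR5. The groups did not overlap and ENO2 fell to 0.601 times the control level (log2 fold change -0.74 ± 0.10 SE, edgeR adjusted p = 6.2e-05). It held 0.966% ± 0.085 of the summed enolase level per length in shLuc and 0.571% ± 0.00685 in shWDR5 (SD, n = 3), so the summed enolase level followed ENO1.

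Ratios of 2 genes within a library do not depend on how libraries are scaled, and the pairs that follow were chosen after their values were seen. Per length, the ratio of PGK1 to ENO1 was 0.219, 0.227 and 0.23 in shLuc and 0.356, 0.369 and 0.377 in shWDR5. The ratio of PKM to ENO1 was 1.11, 1.10 and 1.10 in shLuc and 1.64, 1.55 and 1.63 in shWDR5, and that of GAPDH to ENO1 was 2.93, 2.93 and 2.96 in shLuc and 4.17, 4.06 and 4.10 in shWDR5. For all 3 pairs every shWDR5 library lay above every shLuc library, which holds under any scaling. ENO1 shares 3.87% of its exonic bases with the antisense gene ENO1-AS1.

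Several of these genes have processed pseudogenes, to which reads may align as well. GENCODE release 29 names 62 pseudogenes after GAPDH, 13 after PGAM1, 6 after LDHA and 6 after RPE. How multi-mapping reads were counted is not given in the sources used here, so the values of these genes are uncertain to that extent.

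Summed by step, levels differed widely along the pathway. In shLuc, GAPDH was the highest step at 2889.8 ± 148 RPKM and glucose transport the lowest of glycolysis at 82.3 ± 2.25 RPKM (SD, n = 3). GAPDH was the gene of rank 5 by RPKM among all 26334 genes in shLuc, PKM of rank 39 and ENO1 of rank 47. Lactate dehydrogenase, enolase and pyruvate kinase followed GAPDH, at 1210.0 ± 42.7, 992 ± 55.6 and 1083 ± 62.2 RPKM. Pyruvate kinase stood above enolase in each library of both groups. Against lactate dehydrogenase it was lower in every shLuc library and, at 1618 ± 105 RPKM, higher in every shWDR5 library. All 33 members together took 2.31, 2.16 and 2.16% of the counts in shLuc and 2.84, 2.72 and 2.61% in shWDR5. In bulk RNA, fewer cells of a type and less RNA per cell cannot be told apart.

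Of the 4 genes of lactate handling, 3 rose and LDHB was not called, where 26.6% of all tested genes were called higher and 29.9% lower. LDHA, the lactate dehydrogenase subunit that favours lactate formation and whose promoter window holds 2 E-boxes, had 1836, 1804 and 1945 CPM in shLuc and 2497, 2514 and 2437 CPM in shWDR5. It rose 1.33-fold and its groups were well apart (log2 fold change 0.42 ± 0.05 SE, edgeR adjusted p = 3.8e-05). LDHB, the subunit that favours pyruvate formation, had 809, 728 and 769.9 CPM in shLuc and 781, 796 and 704 CPM in shWDR5. These values overlapped and LDHB was not called (log2 fold change -0.02 ± 0.06 SE, edgeR adjusted p = 0.85). The ratio of LDHA to LDHB per length was 1.42, 1.55 and 1.58 in shLuc and 2.00, 1.98 and 2.17 in shWDR5, higher in each shWDR5 library than in any shLuc library. As a share of the pair per length, LDHB went from 39.7% ± 1.38 to 32.8% ± 1.10 (SD, n = 3).

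Of the 2 monocarboxylate transporters, SLC16A3, the MCT4 carrier of glycolytic cells, had 447, 438 and 399.8 CPM in shLuc and 656, 596 and 581 CPM in shWDR5, a 1.43-fold rise (log2 fold change 0.51 ± 0.06 SE, edgeR adjusted p = 3.4e-05). SLC16A1, the widely expressed MCT1 carrier, had 162, 188 and 178 CPM in shLuc and 200.1, 209 and 221 CPM in shWDR5 and rose less, 1.19-fold (log2 fold change 0.26 ± 0.07 SE, edgeR adjusted p = 0.0056). In both cases the lowest shWDR5 library exceeded the highest shLuc library, although SLC16A1 came close. SLC16A3 supplied 82.0% ± 1.56 of the pair per length in shLuc and 84.5% ± 1.46 in shWDR5, values that overlapped between libraries.

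The pentose phosphate pathway went the other way in its non-oxidative arm. RPIA (chr2:88991176-89050452, hg19, plus strand), which makes ribose-5-phosphate, had 41.9, 41.7 and 43.9 CPM in shLuc and 16.5, 17.9 and 16.6 CPM in shWDR5. It fell to 0.401 times the control level, the largest decrease among the members (log2 fold change -1.32 ± 0.07 SE, edgeR adjusted p = 3.6e-08), and RPIA stood at rank 15824 of 16117 when tested genes were ordered from the most increased to the most decreased. TKT (chr3:53258723-53290130, hg19, minus strand), the thiamine-dependent transketolase, had 839, 816 and 798 CPM in shLuc and 555, 553 and 534 CPM in shWDR5. TALDO1, transaldolase, had 142, 135 and 138 CPM in shLuc and 98.1, 101 and 93.7 CPM in shWDR5. Both fell in every library, to 0.67 times control for TKT (log2 fold change -0.58 ± 0.05 SE, edgeR adjusted p = 2.0e-06) and 0.704 times for TALDO1 (log2 fold change -0.51 ± 0.05 SE, edgeR adjusted p = 1.1e-05). RPE, the epimerase at the same branch point as RPIA, had 37.0, 50.4 and 44.04 CPM in shLuc and 34.8, 43.3 and 45.6 CPM in shWDR5. Its libraries overlapped and it had the largest standard error of the members except SLC2A3 (log2 fold change -0.09 ± 0.13 SE, edgeR adjusted p = 0.61), and 24.7% of its exonic bases are shared with KANSL1L on the opposite strand.

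In the oxidative arm neither PGLS nor PGD fell. PGLS, the lactonase, had 27.5, 25.8 and 25.1 CPM in shLuc and 38.1, 35.0 and 36.5 CPM in shWDR5 and rose 1.40-fold (log2 fold change 0.48 ± 0.07 SE, edgeR adjusted p = 7.0e-05). PGD, which produces NADPH, had 245, 235 and 228 CPM in shLuc and 253, 248 and 237 CPM in shWDR5 and was not called (log2 fold change 0.06 ± 0.05 SE, edgeR adjusted p = 0.36). The ratio of TKT to PGD per length was 2.82, 2.86 and 2.88 in shLuc and 1.81, 1.83 and 1.86 in shWDR5, and that of RPIA to RPE was 2.102, 1.53 and 1.85 in shLuc and 0.882, 0.769 and 0.678 in shWDR5. Both ratios were lower in every shWDR5 library, which holds whatever the scaling.

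Of the 3 pyruvate dehydrogenase kinases in the list, 2 rose, where 26.6% of all tested genes were called higher and 29.9% lower. These kinases switch off pyruvate dehydrogenase and so keep pyruvate out of the citric acid cycle. PDK1, a known HIF1A target, had 29.6, 34.3 and 33.01 CPM in shLuc and 38.5, 41.8 and 45.3 CPM in shWDR5 (log2 fold change 0.37 ± 0.08 SE, edgeR adjusted p = 0.0015). PDK3 had 44.9, 56.3 and 53.8 CPM in shLuc and 61.5, 65.6 and 64.6 CPM in shWDR5 (log2 fold change 0.31 ± 0.08 SE, edgeR adjusted p = 0.006). PDK4, the kinase induced by fasting, had 10.4, 12.7 and 13.2 CPM in shLuc and 10.2, 12.1 and 12.9 CPM in shWDR5 and was not called (log2 fold change -0.04 ± 0.11 SE, edgeR adjusted p = 0.79). Per length, PDK1 made 43.6% ± 1.23 of the 3 kinases in shLuc and 47.2% ± 0.8 in shWDR5, and PDK4 went from 25.6% ± 1.01 to 20.8% ± 1.09 (SD, n = 3).

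A list of 13 genes for pyruvate entry into mitochondria was also read. It holds, among others, the complex that these kinases switch off, its phosphatases and the kinase PDK2. Of the 13, 10 were called lower, 2 higher and 1, citrate synthase (CS), was not called. All 13 were tested and their median log2 fold change was -0.34, beside -0.01 over all tested genes and 29.9% of those called lower. This list too was chosen with earlier results of these data known, so its counts are a description. The 10 lower genes included both mitochondrial pyruvate carrier genes and every pyruvate dehydrogenase complex gene listed (PDHA1, PDHB, PDHX, DLAT and DLD). PDP2, a phosphatase that reactivates the complex, had 41.4, 42.9 and 42.4 CPM in shLuc and 24.7, 26.6 and 26.2 CPM in shWDR5 (log2 fold change -0.71 ± 0.06 SE, edgeR adjusted p = 1.9e-06). PDHX, a structural subunit of the complex, had 45.1, 54.7 and 51.0 CPM in shLuc and 27.8, 32.4 and 32.2 CPM in shWDR5 (log2 fold change -0.71 ± 0.09 SE, edgeR adjusted p = 2.7e-05), and DLAT, its acetyltransferase, had 63.1, 71.2 and 70.1 CPM in shLuc and 45.1, 53.0 and 51.1 CPM in shWDR5 (log2 fold change -0.45 ± 0.07 SE, edgeR adjusted p = 2.7e-04). The second phosphatase, PDP1, fell as well (log2 fold change -0.39 ± 0.12 SE, edgeR adjusted p = 0.023). PDK2, the remaining kinase of this family, rose, with 9.23, 9.21 and 8.57 CPM in shLuc and 16.2, 12.9 and 13.9 CPM in shWDR5 (log2 fold change 0.67 ± 0.09 SE, edgeR adjusted p = 8.3e-05), as did PDPR, a regulator of the phosphatase (log2 fold change 0.29 ± 0.06 SE, edgeR adjusted p = 0.0013). CS, PDPR and the carrier and complex genes named without values were chosen after their values were seen.

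**Figure D4:**
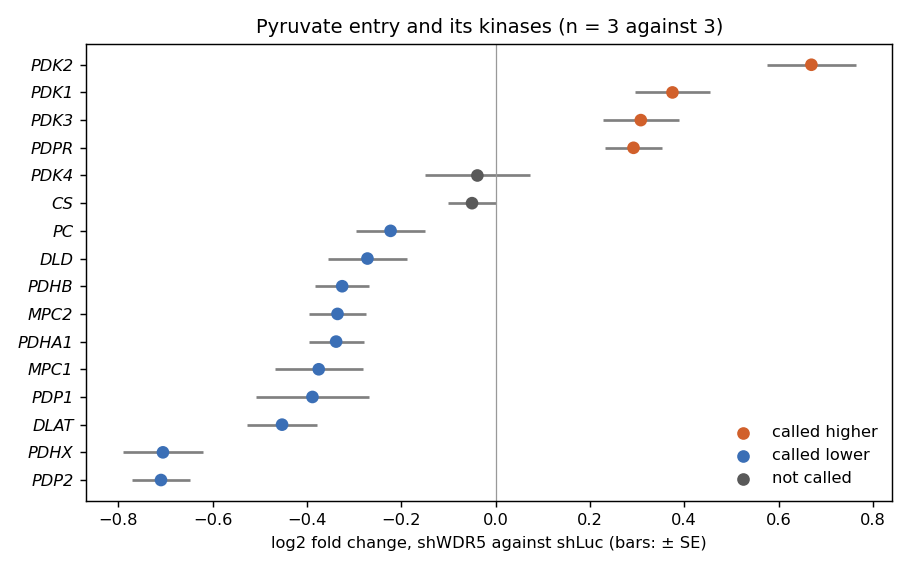
Points give the log2 fold change of shWDR5 against shLuc with its standard error for 13 genes of pyruvate entry and the members PDK1, PDK3 and PDK4 (n = 3 libraries against 3), coloured by call. Carrier, complex and phosphatase genes lie below 0, PDK1, PDK2, PDK3 and PDPR above it, and PDK4 and CS near it.

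Genes of the routes that branch off glycolysis went in both directions. Of 24 listed, 22 were tested, 7 were called higher and 8 lower, near the background of 26.6% and 29.9%, with a median log2 fold change near 0 (-0.0019) beside -0.01 over all tested genes. GYS1, muscle-type glycogen synthase, had 115, 115 and 111 CPM in shLuc and 237, 216 and 220.4 CPM in shWDR5 and rose 1.97-fold (log2 fold change 0.98 ± 0.06 SE, edgeR adjusted p = 8.8e-08), and GBE1, the glycogen branching enzyme, rose 1.60-fold (log2 fold change 0.68 ± 0.06 SE, edgeR adjusted p = 2.2e-06). TIGAR, a phosphatase that lowers fructose-2,6-bisphosphate, had 44.2, 48.4 and 53.6 CPM in shLuc and 86.3, 89.6 and 91.3 CPM in shWDR5 (log2 fold change 0.87 ± 0.07 SE, edgeR adjusted p = 1.3e-06). AKR1B1, which reduces glucose to sorbitol, rose (log2 fold change 0.78 ± 0.07 SE, edgeR adjusted p = 3.3e-06). PRPS1, which takes the product of RPIA towards nucleotides, had 49.5, 48.3 and 50.04 CPM in shLuc and 30.8, 30.1 and 27.0 CPM in shWDR5 and fell (log2 fold change -0.75 ± 0.07 SE, edgeR adjusted p = 2.2e-06).

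Tissue-restricted isoenzymes stayed at low levels. Of 15 listed, 8 passed the filter, and of these 4 were called higher and 1 lower, counts that carry no weight because a low gene can pass the filter through the group where it is higher. PGAM2, the muscle mutase, had 1.25, 0.928 and 0.743 CPM in shLuc and 4.36, 4.21 and 4.37 CPM in shWDR5, a 4.34-fold rise (log2 fold change 2.12 ± 0.16 SE, edgeR adjusted p = 5.4e-07) that left it far below PGAM1, at 5.03 against 310.3 RPKM in shWDR5. ENO3 (log2 fold change 1.10 ± 0.14 SE, edgeR adjusted p = 3.7e-05), the lactate carrier SLC16A8 (log2 fold change 1.24 ± 0.12 SE, edgeR adjusted p = 3.3e-06) and HKDC1 (log2 fold change 1.22 ± 0.30 SE, edgeR adjusted p = 0.0042) also rose, each under 6 CPM in every library. SLC16A7, the MCT2 carrier, had 19.7, 34.2 and 25.9 CPM in shLuc and 7.08, 10.6 and 11.5 CPM in shWDR5 and fell to 0.367 times control (log2 fold change -1.45 ± 0.25 SE, edgeR adjusted p = 0.0028).

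All 12 listed regulators were called, 8 higher and 4 lower, where 26.6% of all tested genes were called higher and 29.9% lower. These regulators were also listed with earlier results of these data known, so the counts are a description. EGLN3 and EGLN1, the oxygen-dependent hydroxylases that mark HIF proteins for destruction and are themselves known HIF targets, both rose, EGLN1 with 47.6, 62.8 and 59.6 CPM in shLuc and 79.7, 102 and 105 CPM in shWDR5 (log2 fold change 0.75 ± 0.13 SE, edgeR adjusted p = 0.0018) and EGLN3 with 0.992, 1.11 and 1.59 CPM in shLuc and 2.22, 2.18 and 2.16 CPM in shWDR5 (log2 fold change 0.84 ± 0.17 SE, edgeR adjusted p = 0.0011). EPAS1, which encodes HIF-2 alpha, had 178, 193 and 184 CPM in shLuc and 103, 111 and 107 CPM in shWDR5 and fell to 0.577 times control (log2 fold change -0.79 ± 0.06 SE, edgeR adjusted p = 4.1e-07). MLXIP, a glucose sensor, rose (log2 fold change 0.50 ± 0.06 SE, edgeR adjusted p = 4.1e-05), while its partner MLX fell (log2 fold change -0.51 ± 0.06 SE, edgeR adjusted p = 1.4e-05). HIF1A (log2 fold change 0.26 ± 0.05 SE, edgeR adjusted p = 0.0014) and MYC (log2 fold change 0.39 ± 0.05 SE, edgeR adjusted p = 5.8e-05), named after their values were seen, were both called higher. The remaining listed regulators, also named after their values were seen, went both ways. ARNT (log2 fold change 0.18), TXNIP (0.26) and BSG (0.23) were called higher, and VHL (-0.23) and ARRDC4 (-0.31) lower. Whether any regulator had a part in the changes of the members was not tested. Regulator mRNA says nothing on protein level or activity, which were not measured here.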

How the data were processed

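RNA-seq was performed on 3 shLuc and 3 shWDR5 libraries of MCF10DCIS.com cells. The deposited values are raw counts of reads per gene, which per the labels were made from poly-A TruSeq libraries; the submitters' processing notes name TopHat2 2.1.0, featureCounts and hg19. Summed exon length per gene came from the same table. Strand setting and treatment of multi-mapping reads are not given in the sources used here. The authors' own edgeR table (fold changes and p-values) was not used.

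Counts were filtered with filterByExpr (16117 of 26334 genes kept), scaled by TMM and tested in 1 model without covariates by edgeR 4.0.16 (robust quasi-likelihood F test, Benjamini-Hochberg over all tested genes, threshold 0.05). SE is the log2 fold change over the square root of F. CPM and RPKM used TMM-scaled library sizes. The fit was tested on simulated data with 200 changed genes, of which edgeR recovered 90%. In the real data 9103 genes were called, so the simulation does not check the scaling under so broad a change. Alternatives were RLE, upper-quartile or no scaling, 2 filters, DESeq2 1.42.0, limma-voom (limma 3.58.1), a replicate block and leaving out each library. Named genes were the 33 members, WDR5 and up to 5 called genes of each companion list with the largest change; others are marked as chosen after their values were seen. Members and lists were chosen with earlier results of these data known. No 2 libraries of a group were duplicates, since their counts differed by more than sampling noise. Libraries numbered alike were not taken as pairs.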

Additional observations from a re-analysis of the deposited data

How the results depend on the processing

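Of the 33 members, 24 kept their direction and their side of the threshold under every one of the 14 alternatives that gave them a value. SLC2A3, counted among them, was removed by the stricter filter and has no value there. Counts of calls stayed within 1.5 times of the reported ones throughout: leaving out 1 library at a time gave 16 to 18 members higher, 5 to 7 lower, 3 to 4 higher and 3 lower by the stricter criteria, 3792 to 4268 genes higher and 4264 to 4573 lower, 21 to 24 listed companion genes higher and 19 to 22 lower, and a WDR5 log2 fold change of -1.20 to -1.09. Besides the losses given with PFKM, PFKP and ALDOC, upper-quartile scaling ended the calls of PFKM and PFKP, DESeq2 that of PFKM and library size alone that of ALDOC, and GPI was called under upper-quartile scaling, the stricter filter and the replicate block. TKT passed the stricter criteria with library size alone, and PKM with upper-quartile scaling.

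Signs turned in 5 members, none of them called in the reported fit or in the setting that turned the sign. As log2 fold changes, HK2 was 0.0051 with RLE, 0.024 with upper-quartile scaling, 0.0058 with the stricter filter, 0.0052 with DESeq2, and 0.0023 and 0.0023, in that order, without shLuc or shWDR5 replicate 1. LDHB was 0.00089 with RLE, 0.020 with upper-quartile scaling, 0.0019 with the stricter filter, 0.00089 with DESeq2, and 0.036 and 0.036 without shLuc replicate 1 or shWDR5 replicate 3. ENO1 was -0.023 with library size alone and -0.0034 without shWDR5 replicate 1, RPE 0.018 and 0.022 without shLuc replicate 2 or shWDR5 replicate 1, and PDK4 0.028 and 0.054 without shLuc replicate 3 or shWDR5 replicate 1. Over all 6 libraries left out in turn, the values ran from -0.036 to 0.0023 for HK2, -0.064 to 0.036 for LDHB, -0.0034 to 0.095 for ENO1, -0.18 to 0.022 for RPE and -0.12 to 0.054 for PDK4. The cause was not tested.

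Family shares computed without division by length moved, by the construction of that alternative, to differences between groups (shWDR5 minus shLuc) of 5.52 percentage points for PFKL, -1.24 for PFKM, -0.553 for ALDOC, -0.295 for ENO2, 1.91 for PDK1 and -2.61 for PDK4, all in the same direction as per length.

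With the replicate number as a block, 4909 genes were higher and 5521 lower, and 18 and 7 members. Deviations from the group means of same-numbered libraries correlated across genes at r = 0.372, 0.0358 and 0.116 for numbers 1, 2 and 3, so the numbers were not taken as pairs, and not every library correlated best with its own number. Depth was lowest for SLC2A3, with 5 to 19 reads a library. The strand setting and the treatment of multi-mapping reads are not given in the sources used here, and mRNA levels alone were measured.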
